A study of Mus musculus with 4 samples.

Results

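The genes described here encode the nuclear subunits of the 5 mitochondrial complexes of oxidative phosphorylation, knocked out one by one in a pooled CRISPR-Cas9 screen of mouse embryonic stem cells. They were taken by symbol, as all genes whose names begin with Nduf followed by a, b, c, s or v and a digit, with Uqcr, with Cox and a digit from 4 to 8 or with Atp5, together with Sdha, Sdhb, Sdhc and Sdhd. The rule found 84 of the 20380 genes listed by the authors, with 485 guides between them. By symbol, complex I had 37 genes, complex II 4, complex III 8, complex IV 18 and complex V 17. Of the 84, 5 are not subunits of the complex that their symbol names, but are counted there.

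The screen was run in E14, an established male line of mouse embryonic stem cells, here of genotype MERVL-tdTomato and with treatment given as none. MERVL is a retroviral element of the mouse genome, switched on at the 2-cell stage and in a small fraction of stem cells in culture, and the tdTomato reporter marks cells in which it is on. All cells had received the same lentiviral lentiCRISPRv2 library of 130209 guides against 20611 genes, and puromycin at 2 ug/mL for 48 h. The 2 groups were MERVL-positive cells, about 500000 sorted at day 5 for the reporter, and total cells, each represented by 2 libraries. By their titles these libraries are sequencing repeats, with no mention of separate cultures. The authors' p-values are taken to come from the ranks of the guides of each gene, and they may not cover any spread between cultures. The deposited table gives 1 comparison between the groups for each gene and no value per library, so no gene has a spread over libraries and depth is unknown. The sort held 3.84 cells per library guide, or about 23.0 cells for a gene with 6 guides, so a knockout with no call may still have had an effect.

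Oxidative phosphorylation is the process by which mitochondria turn the energy of nutrients into ATP. Complex I (NADH dehydrogenase) and complex II (succinate dehydrogenase, also an enzyme of the citric acid cycle) pass electrons to ubiquinone, complex III passes them on to cytochrome c, and complex IV (cytochrome c oxidase) passes them to oxygen. Complexes I, III and IV pump protons across the inner membrane, and complex V, the ATP synthase, uses the gradient to make ATP. Cultured mouse embryonic stem cells are known to use both glycolysis and respiration.

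The authors' deposited table does not say which group is the numerator of its log2 fold changes. A positive value is taken to mean more guides in the sorted MERVL-positive population than in total cells, so that it belongs to a knockout whose cells were relatively more frequent among reporter-positive cells. This reading is likely but not settled, because it rests on the study's title, which links loss of Ints7 to active MERVL, and on the place of Ints7 in their table, namely rank 157 for enrichment against 18586 for depletion. With the opposite reading, enrichment and depletion change places throughout.

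No gene of oxidative phosphorylation passed a false discovery rate of 0.05 per the authors' deposited table in either direction. A false discovery rate under 0.05 for depletion was held by 0.00491% of all genes, and for enrichment by 0 genes. The lowest rate of any member there was 0.846, for depletion of Atp5d, the delta subunit of the ATP synthase. At an unadjusted p under 0.05, the authors' deposited table listed 5 of the 84 genes for depletion, which is 5.95% against a background of 5.07% of all genes. For enrichment it listed 3 of the 84, which is 3.57% against a background of 5.02%. Both shares lie near the background, so the counts are not a result about these genes.

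The 5 genes with an unadjusted depletion p under 0.05 were counted, by symbol, under complexes I, IV and V. Atp5d had a log2 fold change of -0.70 and a depletion p of 0.0071 per the authors' deposited table, with 5 of its 6 guides down and 1 up. Its position in mm10 is chromosome 10 from 80138698 to 80145828. A guide is called up or down here when it passed the threshold that the authors' guide counts use, which is loose, since 37.4% of all guides were up and 38.0% down over all genes. Ndufa4l2, a paralogue of Ndufa4 known to be induced by hypoxia, had the lowest value of all 84 genes, a log2 fold change of -2.47 and a depletion p of 0.0285 per the authors' deposited table. It had only 4 guides there, 3 down and 1 up, and lies on chromosome 10 from 127509274 to 127517154. Its symbol puts it under complex I, of which it is not a subunit.

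Atp5j2, the f subunit in the membrane part of the ATP synthase (chromosome 5 from 145183704 to 145191541), had -0.92 on the log2 scale with 4 of 5 guides down and a depletion p of 0.0397 per the authors' deposited table. Ndufb9, an accessory subunit at the far end of the complex I membrane arm (chromosome 15 from 58933801 to 58939516), had -1.18 with 5 of 6 guides down, none up and a depletion p of 0.04995 per the authors' deposited table, just inside the threshold. The remaining gene of the 5 did not have a low value. Cox6b2, the testis form of subunit 6b of cytochrome c oxidase (chromosome 7 from 4751792 to 4753094), had a depletion p of 0.0332 per the authors' deposited table, beside a log2 fold change of 0.14 and 2 guides in each direction.

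The 3 genes with an unadjusted enrichment p under 0.05 were all supernumerary subunits of the complex I membrane arm. They make 15.8% of the 19 genes of that arm, against 5.02% of all genes, a difference that was not tested. Ndufa1 (chromosome X from 37187588 to 37191238) showed a log2 fold change of 0.23, with 3 guides up and 1 down, and an enrichment p of 0.0215 per the authors' deposited table. Ndufa10 (chromosome 1 from 92439486 to 92473825) had 0.42, with 3 guides up and 2 down, and a p of 0.0251 per the authors' deposited table. Ndufb5 (chromosome 3 from 32737057 to 32751559) showed a log2 fold change of only 0.038, with 2 guides up and 1 down, and a p of 0.0403 per the authors' deposited table. Their false discovery rate was 0.985 per the authors' deposited table, so none of the 3 stands as a hit.

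As a group the 84 genes lay where all genes lay. Their median log2 fold change was 0.011 and their quartiles -0.28 and 0.21, beside a median of -0.021 and quartiles of -0.33 and 0.26 over all genes. The single non-targeting guides had a median of 0.019. Of the members, 43 had a value above 0, 51.2% against 48% of all genes, and 41 a value below 0, 48.8% against 52% of all genes. A log2 fold change of -1 or lower was held by 4 members, 4.76% against 3.29% of all genes, namely Ndufa4l2, Ndufc1, Atp5g1 and Ndufb9. A value of 1 or higher was held by 1 member, Ndufs3, or 1.19% against 0.868%.

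The guides showed the same position. Of the 485 guides, 36.9% were down and 36.1% up. No member had all of its guides on 1 side, and the most that any member had were 5 down, in 3 genes, and 4 up, in 7 genes. Few genes of the whole table had all guides on 1 side, 0.589% up and 0.765% down, and 5 or more down were held by 2.74% of all genes against 3.57% of the members. With 4 or more guides up counted, the members' share was 8.33% against 12.8% of all genes, and with 4 or more down, 11 members made 13.1% against 13.5%.

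The 5 complexes had medians between -0.084 and 0.23, all inside the interquartile range of all genes, -0.33 to 0.26. That range describes single genes, and medians of several genes vary less, so lying inside it says little. Complex III had the highest median, 0.23, followed by complex II at 0.12, complex IV at 0.038, complex I at 0.016 and complex V at -0.084. Within each complex the values were widely spread, with standard deviations over genes of 0.62 in complex I, 0.40 in II, 0.31 in III, 0.39 in IV and 0.48 in V. The 0.62 includes Ndufa4l2, at -2.47. The 7 catalytic core and 28 supernumerary genes of complex I, which leave it out, had 0.47 and 0.50. The order of the medians is a description of these genes, and no difference between complexes was tested. It also depended on the summary, since by the mean complex II, at -0.0037, came below complex IV, at 0.0051. With genes of 6 guides only, the median of complex V turned to 0.0011, and complex I, at 0.030, came above complex IV, at 0.0068.

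**Figure D1:**
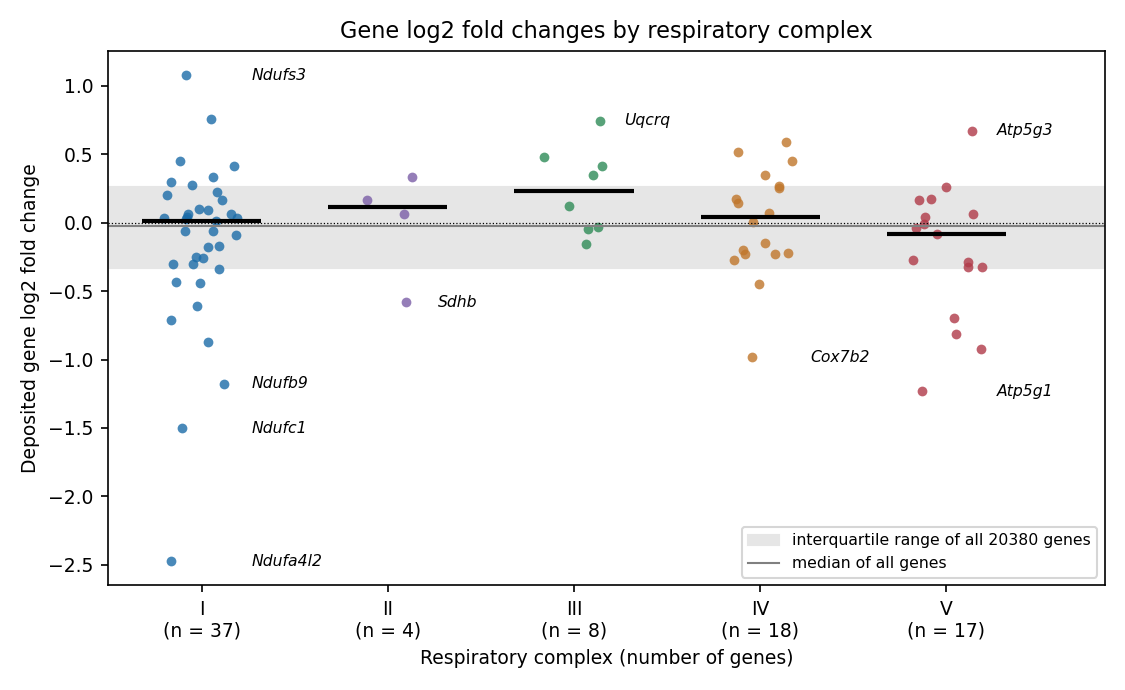
Deposited gene log2 fold change (vertical axis) of each of the 84 genes, by respiratory complex as named by the symbol; each point is 1 gene, black bars are the complex medians, the grey band spans the interquartile range of all 20380 genes, and points are spread sideways only for legibility. The medians run from -0.084 in complex V to 0.23 in complex III, while single genes run from -2.47 (Ndufa4l2) to 1.08 (Ndufs3).

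Counted by guides, complexes I and V had more guides down than up, and complexes III and IV more up than down. In complex I, 42.1% of 214 guides were down and 33.6% up, and in complex V 42.3% of 97 were down and 35.1% up. In complex IV the shares were 29.0% down and 39.3% up of 107 guides. Complex III had the lowest share down, 20.0% of 45 guides, with 42.2% up, and complex II had 8 of 22 guides on each side. Guides against 1 gene share their target, and guides are not replicates, so these shares are given without a test.

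**Figure D2:**
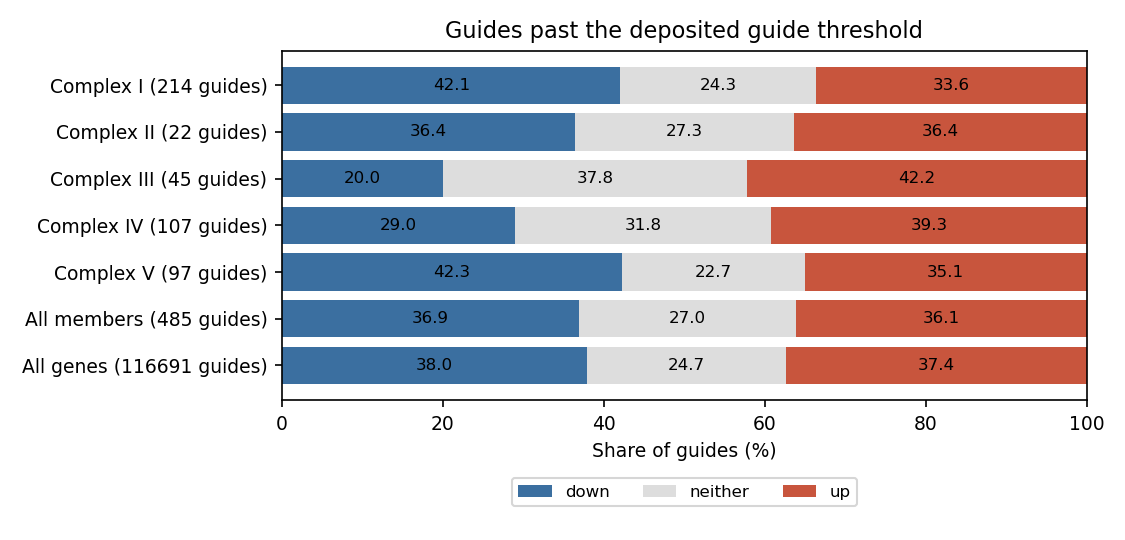
Share of guides (horizontal axis, %) past the authors' guide threshold downward (blue), upward (red) or neither (grey), for each complex, for all 84 members and for all genes. Complex III has 20.0% of guides down and complex IV 29.0%, beside 38.0% over all genes, and complexes I and V have 42.1% and 42.3%.

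Complex I is the largest complex of the chain. Its peripheral arm reaches into the matrix and carries the flavin and the iron-sulfur clusters that oxidise NADH, and its membrane arm pumps protons. The 7 nuclear genes of its catalytic core had a median log2 fold change of 0.027, and the 28 supernumerary subunits one of -0.010. Ndufs3, a core subunit of the arm that leads electrons to ubiquinone, had the highest value of all 84 genes per the authors' deposited table, 1.08, a ratio of 2.11, which is above 99.4% of all genes. Of its 5 guides, 3 were up and none down, but its enrichment p per the authors' deposited table was 0.184. The value is high while the rank test of the authors did not single the gene out.

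Other core subunits lay closer to 0. Ndufv1, which binds the flavin and NADH, had -0.26 and its neighbour Ndufv2 had 0.17 per the authors' deposited table. Ndufs1, which holds several iron-sulfur clusters, had -0.30 with 3 guides up and 3 down per the authors' deposited table. The authors' deposited table gave 0.027 for Ndufs8 and -0.17 for Ndufs7, both part of the path to ubiquinone. Among the 7 core genes the lowest depletion p was 0.330 and the lowest enrichment p 0.184 per the authors' deposited table.

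Over the whole peripheral arm, 16 genes had a median of 0.030 and values from -0.61 to 1.08. The lowest was Ndufa7, with -0.61 and 5 of 6 guides down per the authors' deposited table, at a depletion p of 0.0643. The membrane arm had 19 genes with a median of -0.058 and values from -1.50 to 0.76. It held the 3 genes named above with an enrichment p under 0.05, 15.8% of the arm against 5.02% of all genes, which was not tested. It also held the lowest subunits of complex I. Ndufc1 and Ndufc2, the only pair of genes with the letter c, both belong to the membrane arm and both had low values.

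Ndufc1 had a log2 fold change of -1.50, lower than all but 0.702% of genes, with 4 of 5 guides down and a depletion p of 0.0709 per the authors' deposited table. Ndufc2 had -0.87 with 4 of 6 guides down, none up and a depletion p of 0.0962 per the authors' deposited table. Of their 11 guides together, 8 were down and 1 up. Ndufb6, another membrane arm subunit, had -0.71 with 4 of 6 guides down per the authors' deposited table. At the other end Ndufb4 had 0.76 with 4 of 6 guides up per the authors' deposited table, although 2 were down, and its enrichment p was 0.0985. The 10 Ndufb genes had a median of -0.13 and values from -1.18 to 0.76, so genes of the same arm lay on both sides of 0.

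**Figure D3:**
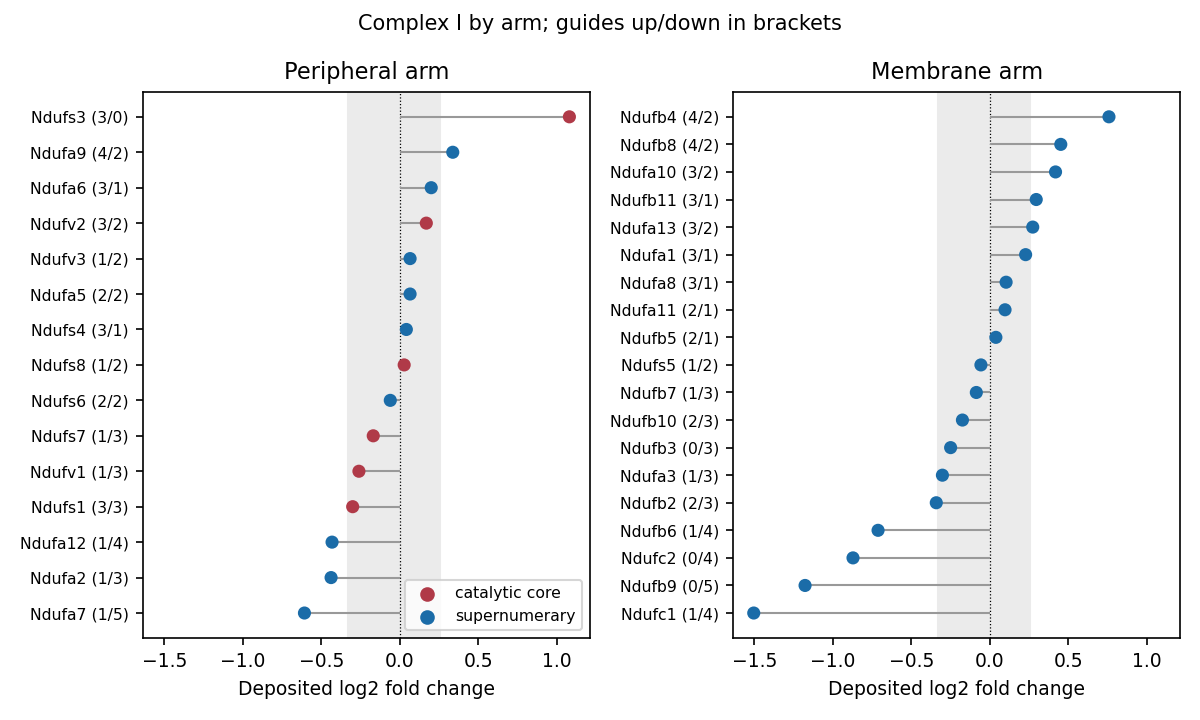
Deposited log2 fold change (horizontal axis) of complex I genes, leaving out Ndufa4, Ndufa4l2 and a gene not drawn, by arm and ordered by value; red points are catalytic core subunits, blue points supernumerary ones, brackets give guides up/guides down, and grey bands span the interquartile range of all genes. Ndufs3 stands at 1.08 in the peripheral arm, and Ndufc1, Ndufb9, Ndufc2 and Ndufb6 lie between -1.50 and -0.71 in the membrane arm.

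Complex II is encoded by nuclear genes alone. Sdha, the flavoprotein that oxidises succinate, had 0.33 per the authors' deposited table, where 3 guides were up and 2 down. Sdhb, the iron-sulfur subunit that takes its electrons, had -0.58 with 4 of 6 guides down, 1 up and a depletion p of 0.136 per the authors' deposited table. The 2 membrane anchors lay near 0, with 0.17 for Sdhc on 4 guides and 0.065 for Sdhd per the authors' deposited table. The catalytic pair thus had values of opposite sign, neither with a p under 0.05.

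In complex III, 5 of 8 genes had a value above 0, which is 62.5% against 48% of all genes. More guides up than down were found for 7 of the 8, or 87.5%, and for 40.2% of all genes, a difference that was not tested. The highest was Uqcrq, a small subunit that sits beside cytochrome b, with 0.74, 4 of 6 guides up, 1 down and an enrichment p of 0.0926 per the authors' deposited table. Uqcrh, the hinge protein that touches cytochrome c1, had 0.48, and the small subunits Uqcr11 and Uqcr10 had 0.41 and 0.35 per the authors' deposited table. Uqcr10 had 3 guides up and 2 down there, and a depletion p of 0.0887 beside an enrichment p of 0.223. The authors' deposited table thus ranked it further forward for depletion than for enrichment, against the sign of its value.

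The larger subunits of complex III lay nearer to 0. The core proteins Uqcrc1 and Uqcrc2 had 0.12 and -0.029 per the authors' deposited table, and Uqcrb, which contacts the ubiquinone site, had -0.049. Uqcrfs1, the Rieske iron-sulfur protein that hands electrons towards cytochrome c, had the lowest value of the complex, -0.16, with 2 guides down and none up per the authors' deposited table. No gene of the complex had a p under 0.05 in either direction. With the 3 genes of 5 guides left out, the median of complex III was 0.12 in place of 0.23.

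Complex IV is the terminal oxidase, whose catalytic metal centres sit in subunits of mitochondrial origin that the rule does not take. Its nuclear subunits regulate and stabilise it, and several exist as a broadly expressed form and a form of muscle, testis, lung or another restricted tissue. Their expression was not measured here. The 10 broadly expressed subunits had a median of 0.060, from -0.45 for Cox6a1 to 0.59 for Cox5b, with 42.4% of 59 guides up and 27.1% down. Cox5b and Cox5a, which bind outside the catalytic core, had 0.59 and 0.45 per the authors' deposited table, with 3 of 5 and 4 of 6 guides up. Cox7b had 0.52 with 4 of 6 guides up and none down per the authors' deposited table, at an enrichment p of 0.123. Cox4i1, the subunit at which ATP is known to act on the enzyme, had 0.27 with 3 guides up and none down per the authors' deposited table.

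Lower values came from Cox6a1 at -0.45, and from Cox6b1, Cox7c and Cox8a at -0.23, -0.23 and -0.22 per the authors' deposited table. Cox6c had -0.15 and Cox7a2 had 0.35 per the authors' deposited table. Cox7a2l, which joins complexes III and IV into supercomplexes and is no regular subunit, had 0.0068 per the authors' deposited table.

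The paralogue pairs gave no common direction. Ndufa4l2 is counted here as a gene of restricted tissue, although it was described above only as induced by hypoxia. In 5 of 8 pairs, counting Cox8a against both Cox8b and Cox8c, the gene of restricted tissue had the lower value, and in 3 the higher. The widest gap was between Ndufa4, now known as a subunit of complex IV in spite of its name, with 0.016, and Ndufa4l2 with -2.47 per the authors' deposited table. Next came Cox7b with 0.52 and its testis form Cox7b2 with -0.99 per the authors' deposited table, where 4 of 6 Cox7b2 guides were down and its depletion p was 0.228. In the opposite direction, Cox6a1 had -0.45 and the muscle form Cox6a2 0.17 per the authors' deposited table, Cox8a -0.22 and Cox8b 0.26, and Cox6b1 -0.23 and Cox6b2 0.14. Cox4i1 had 0.27 against -0.20 for Cox4i2, and Cox7a2 had 0.35 against 0.070 for Cox7a1, per the authors' deposited table. Cox8c, at -0.27 per the authors' deposited table, differed from Cox8a by -0.053.

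Over the 8 genes of restricted tissue, with Ndufa4l2 counted among them, the median was -0.065, and over their 7 broadly expressed partners 0.016. Without Ndufa4l2 the first of these medians turned to 0.070. The gap between Ndufa4 and Ndufa4l2 rests on 4 guides for the second gene, and it cannot be set against a spread over libraries.

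**Figure D4:**
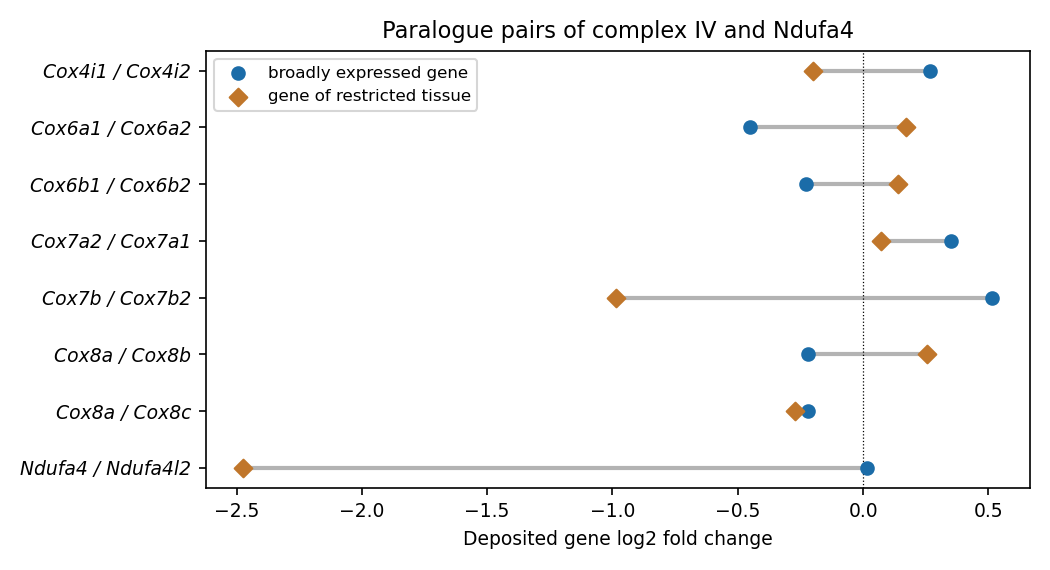
Deposited gene log2 fold change (horizontal axis) of each broadly expressed gene (blue circle) and its paralogue of restricted tissue (orange diamond), joined by a line for each of the 8 pairs. Ndufa4l2 is counted as a gene of restricted tissue. The restricted gene lies to the left in 5 pairs, with a difference of -2.49 from Ndufa4 and of -1.50 from Cox7b, and to the right in 3.

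Complex V makes ATP in its F1 head, which is turned through a central shaft by a ring of c subunits in the membrane, while a peripheral stalk holds the head in place. All 5 genes of the head and its shaft had values below 0, a side on which 52% of all genes lay, with a median of -0.29, and 13 of their 28 guides were down and 6 up. The catalytic beta subunit Atp5b had -0.32 with 1 guide in each direction per the authors' deposited table. The authors' deposited table gave -0.29 for Atp5c1, the gamma subunit and part of the rotating shaft, with 3 guides down and none up. Atp5d, at -0.70, was the lowest of the 5, and Atp5e and Atp5a1, the epsilon and alpha subunits, lay near 0 with -0.084 and -0.013 per the authors' deposited table. Of the 5, Atp5d alone had a depletion p under 0.05.

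The 3 c-ring genes were far apart. Atp5g1, Atp5g2 and Atp5g3 encode the same mature c subunit behind different mitochondrial targeting sequences. Atp5g1 had -1.23 and Atp5g3 0.67 per the authors' deposited table, and Atp5g2 lay between them with -0.32. Atp5g1 had 3 guides down and 2 up, with a depletion p of 0.0544, and Atp5g3 had 4 up and 1 down, with an enrichment p of 0.0674, per the authors' deposited table. Of all genes, 1.62% had a lower log2 fold change than Atp5g1 and 95.1% a lower one than Atp5g3. The difference between the c-ring genes was not tested.

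In the peripheral stalk, Atp5j (subunit F6) had -0.81 with 4 of 5 guides down and a depletion p of 0.110 per the authors' deposited table. The other stalk genes lay near 0, Atp5h with -0.036, Atp5o with 0.039 and Atp5f1, the b subunit, with 0.17 per the authors' deposited table. Of the small membrane subunits, Atp5l had -0.28 and Atp5k 0.17 per the authors' deposited table, beside the -0.92 of Atp5j2. Atp5s and Atp5sl, which RefSeq now lists as Dmac2l and Dmac2 and which are not regular subunits, had 0.26 and 0.062 per the authors' deposited table. Without these 2 genes the median of complex V was -0.28 in place of -0.084, so its value depended strongly on which genes were counted.

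**Figure D5:**
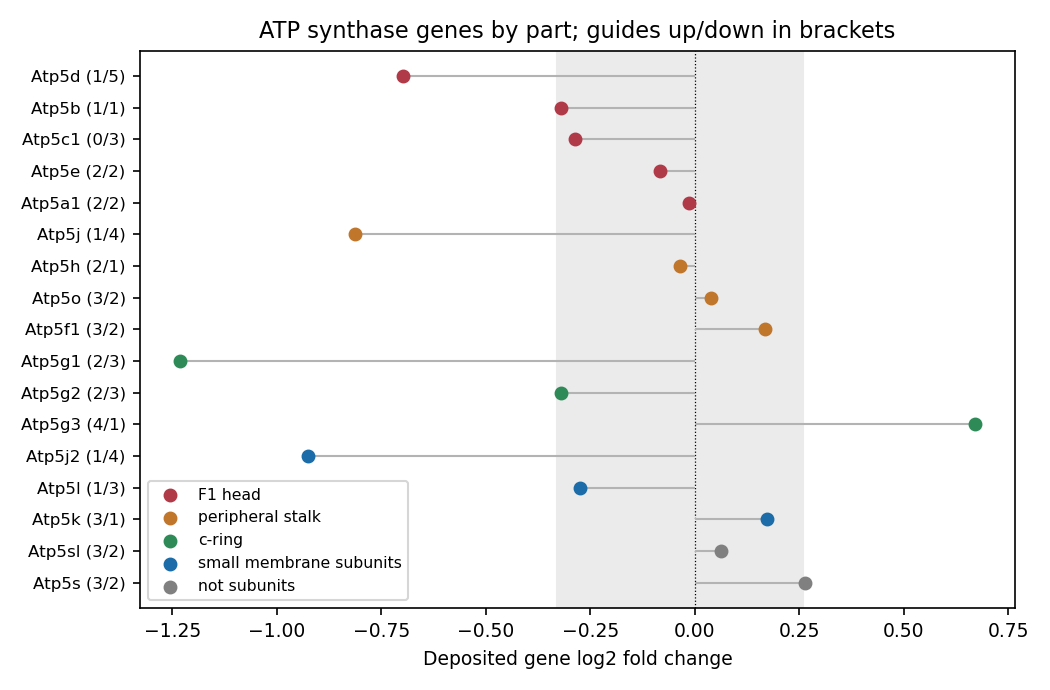
Deposited gene log2 fold change (horizontal axis) of the 17 complex V genes, coloured by part of the enzyme and ordered by value within it; brackets give guides up/guides down and the grey band spans the interquartile range of all genes. All 5 genes of the head and its shaft lie below 0, from -0.70 to -0.013, and the 3 c-ring genes run from -1.23 to 0.67.

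Some subunits carry names that the rule does not take. Cyc1, the cytochrome c1 of complex III, had -0.027, and Ndufab1, the acyl carrier protein of complex I, had -0.26 per the authors' deposited table. Cycs and its testis form Cyct, the mobile cytochromes c between complexes III and IV, had 0.15 and -0.057 per the authors' deposited table. Usmg5, a small subunit of the ATP synthase, had -0.26 with 1 guide in each direction per the authors' deposited table. None of these 5 genes had a p under 0.05 there.

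Assembly factors, which build the complexes without staying in them, were given as 48 genes, with a median of -0.13 beside the 0.011 of the members and the -0.021 of all genes. Of these, 33 had a value below 0, which is 68.8% against 52% of all genes. An unadjusted p under 0.05 was held by 4 for depletion, 8.33% against 5.07%, and by 2 for enrichment, 4.17% against 5.02%, so both counts lie near the background. The 20 factors of complex IV had a median of -0.14 and 16 values below 0, or 80.0% against 52% of all genes. Of their 113 guides, 50.4% were down and 18.6% up, beside 38.0% and 37.4% over all genes and 29.0% and 39.3% for the complex IV subunits. These differences were not tested. Coa4, Taco1, which helps translate a mitochondrially encoded oxidase subunit, and Coa6, which serves copper delivery, had log2 fold changes of -1.23, -1.01 and -0.76 and depletion p-values of 0.0250, 0.0458 and 0.0447 per the authors' deposited table. All 5 Coa4 guides and 5 of 6 Taco1 guides were down per the authors' deposited table. These 3 genes make 15% of the 20 factors of complex IV, against 5.07% of all genes, which was also not tested. None of the 3 passed a false discovery rate of 0.05 per the authors' deposited table, so none stands as a hit.

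The 15 complex I assembly factors had a median of -0.17, with 11 values below 0, or 73.3% against 52% of all genes. All 4 complex II factors also lay below 0. Above 0, where 48% of all genes lay, were 4 of 6 complex III factors and 3 of 3 complex V factors. These shares were not tested. The complex I factors held a gene at each end. Ndufaf4 had 1.19 with 5 of 6 guides up and an enrichment p of 0.0107 per the authors' deposited table, and Ndufaf6 had -1.09 with 4 of 6 guides down and a depletion p of 0.0341. Uqcc3, a complex III factor listed as AI462493, had 0.80 with 3 of 5 guides up and an enrichment p of 0.0431 per the authors' deposited table. Their false discovery rates per the authors' deposited table were 0.959, 0.975 and 0.985, so none passed.

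The citric acid cycle supplies NADH and succinate to complexes I and II. Its 13 listed genes leave out the 4 Sdh genes of complex II, which had 8 of 22 guides on each side. The 13 had a median of 0.33, with 9 values above 0, or 69.2% against 48% of all genes, and 55.4% of 74 guides up against 37.4%. These differences were not tested. The 13 genes held Suclg2, a subunit of succinyl-CoA synthetase, with 0.99 and an enrichment p of 0.0408, and Idh3b, a subunit of isocitrate dehydrogenase, with -1.76 on 4 guides and a depletion p of 0.0233, per the authors' deposited table. Neither passed a false discovery rate of 0.05 there. Other mitochondrial sets had medians near that of all genes, 0.025 for 24 genes of protein import and -0.062 for the 76 genes of the mitochondrial ribosome. The spread of the members, with a standard deviation over genes of 0.53, was also close to the 0.44 of the import genes, the 0.49 of the mitochondrial ribosome and to the 0.48 of all genes. A deposited depletion p under 0.05 was held by 3 import genes, 12.5% against 5.07% of all genes, the lowest at 2.4e-05. For enrichment it was held by 0 import genes. None passed a false discovery rate of 0.05, and the difference was not tested.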

How the data were processed

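Guide DNA was amplified from genomic DNA of 4 libraries, and the values come from 1 table of 22510 entries: 20380 genes, 1132 microRNAs and 998 single non-targeting guides. The submitters' processing notes name MAGeCK and mm10; the sources used here give no version, settings or normalization. Per the file headers, the authors deposited for each gene a log2 fold change (identical in its 2 columns), and for each direction a score with its rank, p-value and false discovery rate, and a count of guides past a threshold. The score is taken as a rank aggregation score and was not used further.

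Medians, counts and shares were computed with Python 3.11.15 and pandas 2.3.3. Their arithmetic alone was checked, on shuffled gene values with a known shift and on made-up genes. No guide or library noise was simulated. No count model, set test or resampling was run, because the table holds no value per library; repeats could be neither compared nor left out. Unadjusted p under 0.05 and false discovery rate under 0.05 are the authors' values, the second taken over the whole table. Positions and current symbols came from RefSeq of GRCm38.p6, which has the coordinates of mm10, with 81 members matched by symbol and 3 by synonym. Guide sequences were not used here. Guides per gene, which set the precision, were 6 in 67 members, 5 in 15 and 4 in 2.

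Genes named are those with a p under 0.05, the extremes and catalytic subunits of each complex, paralogue pairs, and members that are not regular subunits; from related lists, those with a p under 0.05. Usmg5, further members described as neighbours of these, and the mitochondrial ribosome and import sets were added after their values were seen. The members and lists were chosen with earlier results of these data known. Alternatives were the mean, genes with 6 guides, non-targeting guides as zero, stricter thresholds and broadly expressed subunits alone. A member of complex I is counted in the totals but is not reported here by name.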

Additional observations from a re-analysis of the deposited data

How the results depend on the processing

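Of 38 alternative values for 10 results, 24 stayed close to the reported one (within 0.1 on the log2 scale, within the exact 95% interval of a guide share or within 1.5 times a count) and 14 moved further. Some could not move. Non-targeting guides as zero only subtract their median of 0.019, and complexes II and III lose no gene with broadly expressed subunits only. The interval treats guides as independent, which they are not, and the alternatives share most guides with the reported value. The tally is therefore no measure of robustness. With the mean in place of the median, complex I, with Ndufa4l2 counted, came to -0.15, complex II to -0.0037, complex V to -0.21 and the genes of restricted tissue to -0.41. With genes of 6 guides only, complex III came to 0.12, complex V to 0.0011 with a change of sign, complex I to 0.030, complex IV to 0.0068, the genes of restricted tissue to 0.070, and the depletion count to 3. With broadly expressed subunits only, complex V came to -0.28 and the depletion count to 3. Without Ndufa4l2, an alternative chosen after seeing the data, the genes of restricted tissue came to 0.070. At a deposited p under 0.01, the depletion count was 1 member, 1.19% against 1.12% of all genes. The enrichment count there was 0 members against 1.07% of all genes. At a deposited false discovery rate under 0.05 the counts were 0 and 0, against 0.00491% and 0 of all genes. No paired analysis was possible because the table has 1 comparison and no columns per library, and leaving out a repeat was not run for the same reason. Depth is unknown, and how the 3.84 sorted cells per library guide bear on the values was not tested.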

Other observations

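Of the members, 3 lie on chromosome X, of which a male line carries a single copy: Ndufa1, Ndufb11 and Cox7b. Per the authors' deposited table, their log2 fold changes were 0.23, 0.29 and 0.52, all above 0, with 10 of their 17 guides up and 2 down. The 81 other members had a median of -0.013, with 35.3% of guides up. The 749 genes of the table placed on chromosome X by symbol had a median of -0.026, close to the -0.021 of all genes. The group of 3 was chosen after its values were seen and was not tested.

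Atpif1, the inhibitor that binds the ATP synthase when the membrane potential fails, had an enrichment p of 0.0243 beside a log2 fold change of -0.36 per the authors' deposited table, where 3 guides were down and 2 up. Together with Cox6b2 it shows that the p-value and the log2 fold change of a gene in this table can point in opposite directions. Atpif1 was chosen after its values were seen.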
